A study of Mus musculus with 11 samples.

Results

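Untreated primary microglia were the unstimulated state of a mouse array study, and their baseline is described here from the 3 arrays whose treatment label is none, out of 11 arrays in the series. No array was chosen by a measured value, and the stimulated arrays enter only the alternatives that normalized all 11 arrays together. The cells came from the brains of newborn C57BL/6J mice with no engineered allele named in the labels. They were cultured at 37 °C and 8% CO2 in DMEM with 9% heat-inactivated foetal calf serum, 0.05 mM β-mercaptoethanol, and penicillin/streptomycin and non-essential amino acids at 0.9% each. The labels give the untreated cells no agent and no time point of their own, and they do not say whether the 3 replicates were separate cultures or animals. The spread between them may therefore be technical. Biotin-labelled RNA copies were hybridised to Illumina BeadChips, which carry beads coated with gene probes, and the scanner table gives each probe a mean bead signal and a detection p-value, the chance that a probe with no target would be as bright.

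Microglia are the resident macrophages of the brain. They arise from early progenitors rather than from circulating monocytes, depend on the receptor Csf1r for survival, and keep their identity through transcription factors such as Spi1 (PU.1), Irf8 and Sall1 and through TGF-beta signalling. They survey the tissue with purinergic and chemokine receptors, tag synapses and debris with C1q, and digest what they engulf in a large lysosomal compartment. In culture with serum, microglia are known to lose part of the gene program they have in the intact brain, so the levels below describe cultured neonatal cells.

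All 3 arrays lay on slide 2 of the 2 slides of the series. Their median raw signals were 122.2, 124.6 and 124.3 for replicates 1, 2 and 3, and 13869, 13989 and 13929 of 45281 probes were detected. Here a level is the log2 signal after background correction and quantile normalization of the 3 arrays together (neqc), and levels are listed in the order of replicates 1, 2 and 3. Each gene was read from its brightest probe. Probes differ in how well they bind, so an order of levels between genes is an order of signals and not of transcript numbers. Untreated replicate 2 stood apart from the others. Across 7493 detected genes its levels correlated with those of replicates 1 and 3 at r = 0.962 and 0.967, against 0.981 between replicates 1 and 3, as a description across genes that are not independent. Between replicates 1 and 2, 440 genes lay at least 1 log2 unit apart, between replicates 2 and 3 378, and between replicates 1 and 3 162. A gene is called variable below where its levels ranged over at least 1 log2 unit, as 653 of the 7493 genes (8.71%) did. What set replicate 2 apart was not tested, and list counts that rest on it are given beside the count of members at least 1 log2 unit apart between replicates 1 and 3 alone. Over all detected genes that count was 162 of 7493, the share to set beside each list. A list with none does not stand apart by it.

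The array measured 19057 genes through probes that carry 1 gene symbol. Of these, 7496 (39.3%) were detected, meaning that at least 1 probe had a detection p below 0.01 on each of the 3 arrays. No probe was detected on any array for 10293 genes (54.0%), which are called absent below, and a signal below this limit is only an upper bound. The other 1268 (6.65%) were detected on some of the arrays only. Each array alone detected between 8048 and 8150 genes. The detected genes had a median level of 8.17. Their levels ran from 5.16 to 15.27, with 2117 genes below 7, 1548 above 10 and 316 above 12. At the limit, 9930104L06Rik, Abhd17b and Ccdc171 were just inside with a worst detection p of 0.00962. Dctn1, a dynactin subunit, Ggn and Hsd11b1, which activates glucocorticoids, were just outside at 0.0107. Abhd17b, for example, read 5.17, 5.53 and 5.73 and Dctn1 5.62, 5.16 and 5.14, so levels on either side of the limit overlap. Of the detected genes, 4664 had more than 1 probe, and for 3317 of these some other probe was not detected on all 3 arrays.

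Detection was most complete in gene families that every cell uses and rarest in receptor families of sensory tissue. Set beside 39.3% over all genes, 70 of 76 mitochondrial ribosomal protein genes, 32 of 34 subunits of respiratory complex I, 53 of 62 cytosolic ribosomal protein genes and 32 of 39 proteasome subunits were detected. Of the Rab GTPases, which direct vesicle traffic, 37 of 59 were detected, led by Rab8b at 12.52, 12.50 and 12.70 and Rab11b at 12.67, 12.63 and 12.41. Large mixed families were nearer the array as a whole. Detected were 131 of 356 solute carriers, 142 of 304 Zfp zinc finger genes and 36 of 65 histone genes. By contrast, 3 of 1078 olfactory receptor genes (0.278%) were detected. Olfr724 was the brightest of them at 5.76, 5.90 and 6.03, near the lowest detected level. None of 170 vomeronasal receptors, 35 taste receptors, 42 beta defensins, 14 voltage-gated potassium channels or 29 GABA and ionotropic glutamate receptors was detected on all 3 arrays. Among 91 keratins and keratin-associated proteins the only detected gene was Krt10, and among 38 Hox genes it was Hoxa13. By chromosome, the share of genes detected ran from 30.2% on the X to 46.9% on chromosome 5, apart from 5.26% on the Y and 6 of 8 mitochondrial genes.

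**Figure D1:**
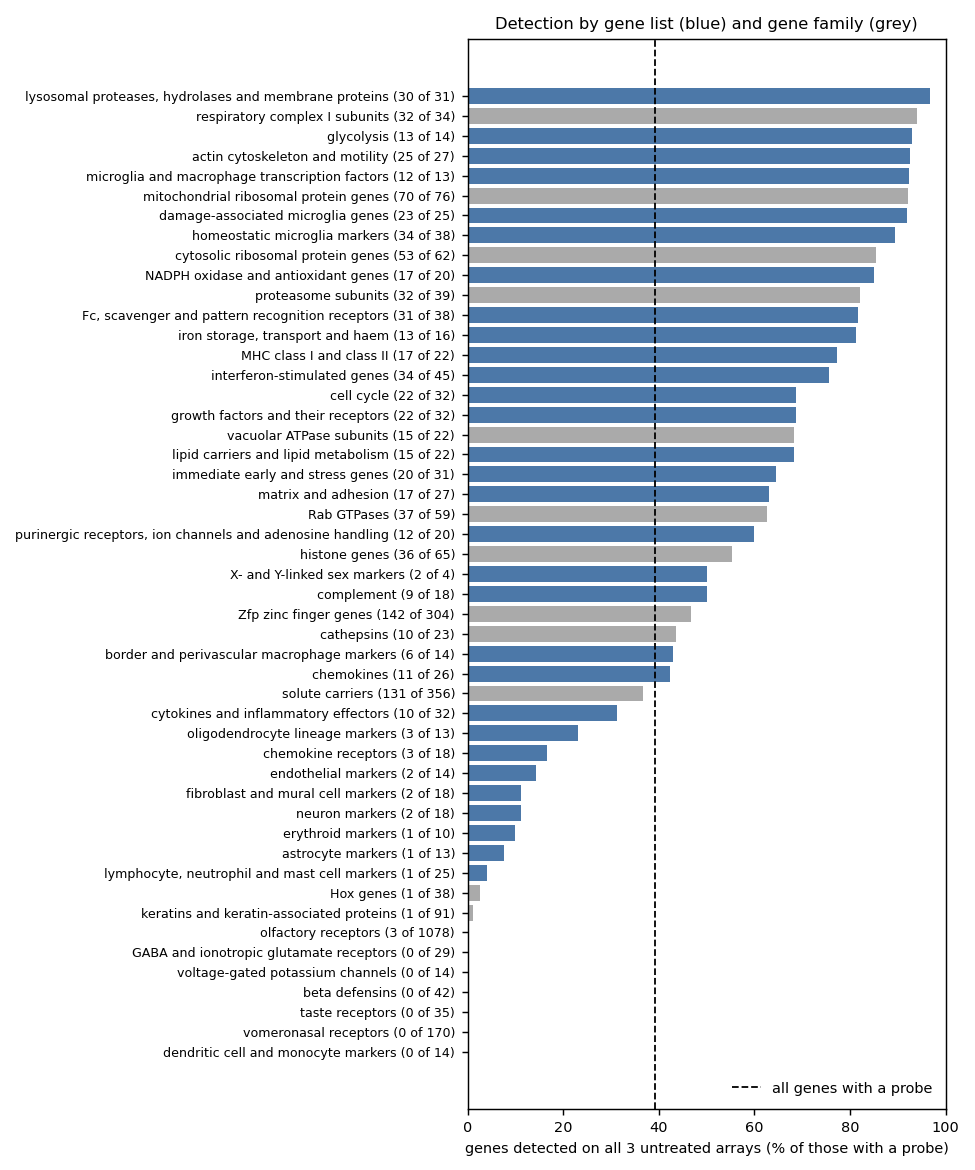
Share of the genes of each list (blue) or gene family (grey) detected on all 3 untreated arrays, in percent of the genes with a probe, with counts in the labels and the dashed line at the 39.3% of all genes. Lysosomal genes (30 of 31) stand at the top, and dendritic cell and monocyte markers (0 of 14) and receptor families of sensory tissue at the bottom.

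The brightest genes of untreated microglia belonged to iron storage, lysosomes, C1q, lipid handling and translation. Fth1, the heavy chain of the iron store ferritin, led at 15.31, 15.19 and 15.31, a mean level of 15.27 ± 0.07 (SD, n = 3). Lyz2, the lysozyme of myeloid cells, stood at 15.19, 14.91 and 15.03. Its neighbour Lyz1 read 15.06, 14.88 and 14.92, but the 2 genes are near-identical copies and their probes may share transcripts. Eef1a1, which delivers tRNAs to the ribosome, read 14.97, 15.03 and 15.14. Among the 30 brightest genes were 6 cytosolic ribosomal protein genes, Rps29, Rpl41, Rps12, Rplp1, Rps2 and Rpl38. Mitochondrial transcripts were represented by CYTB at 14.35, 14.36 and 14.10 and ND4 at 14.22, 14.57 and 13.85, both parts of the respiratory chain. At this end of the scale quantile normalization gives all arrays the same set of values, so equal ranks have equal levels.

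The lysosomal group within the 30 brightest held Laptm5, a lysosomal membrane protein of blood-lineage cells, at 14.78, 14.86 and 14.81. Psap, the precursor of the saposins that help degrade sphingolipids, read 14.72, 14.78 and 14.84. The cysteine protease Ctsb read 14.58, 14.64 and 14.50. The ranges of these 3 genes were 0.09, 0.12 and 0.14 log2 units, below the median range of 0.40 over all detected genes. Lgmn, the asparagine endopeptidase that activates other cathepsins, read 13.997, 14.23 and 14.23, and Cst3, a secreted inhibitor of cathepsins, 14.03, 14.21 and 14.36. Gpnmb, a membrane glycoprotein of phagocytes, read 14.08, 14.38 and 14.38, and Slc11a1, a metal transporter of the phagosome membrane, 13.89, 14.29 and 13.99. Immune receptors in the group were Fcer1g, the signalling chain shared by Fc receptors, at 14.64, 14.45 and 14.57 and Sirpa, the receptor for the CD47 signal of healthy cells, at 14.17, 14.50 and 13.99. Itm2b and the actin-binding Tmsb4x were also among them.

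A few of the brightest genes varied more. Lpl, the lipase that releases fatty acids from lipoproteins, read 13.51, 15.14 and 14.45, a range of 1.63 with replicate 2 highest. Actb, the cytoskeletal actin, read 14.67, 13.56 and 14.35, lowest on replicate 2. A second Actb probe read 13.55, 13.63 and 13.73, so the low value on replicate 2 was seen by the brightest probe and not by that one. Fcrls, an Fc receptor-like gene of microglia, read 14.46, 13.61 and 14.33 and was also lowest on replicate 2.

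The promoter of Laptm5 is shown because the gene was bright on all 3 arrays with a range of 0.09 and because its window holds the letters bound by PU.1. The RefSeq window runs from 250 bases before to 50 bases after the gene start (GRCm38.p6, chr4:130913066-130913365, plus strand), and the capitals mark the match to GAGGAAG, here on the opposite strand. 
Laptm5: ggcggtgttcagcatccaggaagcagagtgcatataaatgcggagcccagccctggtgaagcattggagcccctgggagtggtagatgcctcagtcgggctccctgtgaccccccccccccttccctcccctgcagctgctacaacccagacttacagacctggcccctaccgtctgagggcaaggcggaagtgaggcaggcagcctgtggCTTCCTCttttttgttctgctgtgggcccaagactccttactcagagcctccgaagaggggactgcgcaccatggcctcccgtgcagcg
Genes and motifs for this and the following windows were chosen after their values were seen. The GAGGAAG letters, searched on both strands, were found in 13.6% of all 32851 windows of the table and in 14.1% of the windows of detected genes. Detected genes had a median of 22 CG dinucleotides per window against 7 over all windows, and 6.76% of their windows held TATAAA against 13.6%. The 32851 windows belong to 27025 genes, some with several windows and some not measured on the array. Detected genes were given 1 window each. The sets of windows therefore differ in kind, and no conclusion on detected genes is drawn from them. A window was matched for 6180 of the 7496 detected genes (82.4%). For the absent genes (77.8%) and the 30 brightest (73.3%) fewer than 80% matched, so a comparison of their windows is void.

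**Figure D2:**
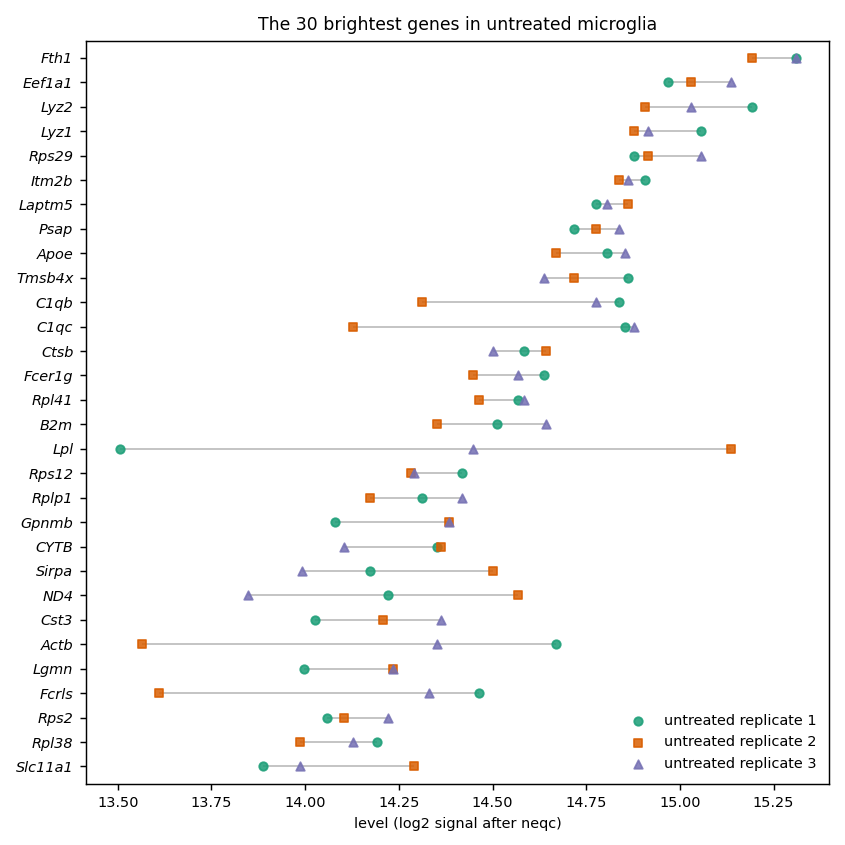
Level (log2 signal after neqc) of the 30 brightest genes on each untreated array, 1 point per array and a line over the range, ordered by the mean of 3 arrays. Fth1 leads at a mean of 15.27; Lpl, Actb and Fcrls spread the most, with replicate 2 at one end in each.

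The labelled cell type was checked against its defining markers. Of 16 microglia markers with a probe, 15 were detected, and the exception was Siglech, a microglial lectin, at 4.67, 4.70 and 4.59. Csf1r, the receptor for the survival factors Csf1 and Il34, read 13.32, 12.85 and 13.16. Cx3cr1, the fractalkine receptor, read 12.86, 11.98 and 13.02, and Trem2, a lipid-sensing receptor, 13.12, 13.72 and 13.38. All 3 of these were bright on each array. Tmem119 and P2ry12, which distinguish microglia from other macrophages, were detected at lower signals, with 8.95, 6.86 and 9.42 for Tmem119 and 7.73, 5.88 and 7.18 for P2ry12. Of the microglia markers detected, 12 of 15 were lowest on replicate 2, where 36.4% of all detected genes were lowest. None was 1 log2 unit apart between replicates 1 and 3, against 162 of 7493 genes.

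Markers of other cells were mostly absent, where 54.0% of all genes were absent and 39.3% detected. None of 14 dendritic cell and monocyte markers was detected on all 3 arrays. A member, Fn1, which other macrophages and mesenchymal cells also make, was bright on replicates 1 and 3 and below the limit on replicate 2, at 10.34, 4.81 and 12.30. The other 13 were absent, among them Ccr2, the receptor of inflammatory monocytes, at 4.55, 4.38 and 4.34. Among lymphocyte, neutrophil and mast cell markers 1 of 25 was detected, Cd8b1, a T cell coreceptor chain, at 10.53, 10.48 and 11.11. Only 1 of the 3 Cd8b1 probes was detected on all 3 arrays. Cd3e, Cd3d, Cd3g and Cd4 were absent. Of 13 astrocyte markers 1 was detected, the glutamine synthetase gene Glul, at 5.65, 5.20 and 6.48. Gfap, the astrocyte intermediate filament, read 4.77, 4.61 and 5.73 and was detected on replicate 3 alone. It was 1 of 5 astrocyte markers detected on some arrays, and the other 7, among them Aqp4, S100b and Slc1a2, were absent. An absent share of 7 in 13 is near the 54.0% of all genes.

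Of 13 oligodendrocyte lineage markers 3 were detected. Mbp, whose locus encodes myelin basic protein and also golli transcripts outside the lineage, read 10.17, 10.13 and 10.03, Cnp 8.67, 7.77 and 8.11 and Mag 7.74, 6.55 and 7.58. Mog, Mobp, Sox10 and Cldn11 of the same list were absent. Of 18 neuron markers 2 passed, Eno2 at 6.17, 6.45 and 6.81 and Syp at 5.44, 5.51 and 5.28, and Tubb3, Map2, Snap25 and Syt1 were absent. Of 14 endothelial markers 2 passed, Flt1, a VEGF receptor also known in macrophages, at 9.02, 10.82 and 9.80 and the adhesion molecule Pecam1 at 6.63, 5.40 and 6.28. Cdh5, Cldn5, Tie1 and Kdr were absent. Of 18 fibroblast and mural cell markers 2 were detected, of which Acta2, smooth muscle actin, read 9.35, 6.08 and 6.68, high on replicate 1 alone. The other, Igfbp5, named after its values were seen, passed through a dimmer probe only. Collagen genes Col1a2 and Col3a1 and the proteoglycan genes Dcn and Lum were absent. The haemoglobin genes Hba-a1, Hbb-bt, Hbb-b2 and Hbb-y were absent too, and of 10 erythroid markers only Epor was detected. In a bulk sample a low marker signal can come from few cells or from little RNA per cell, and these cannot be told apart. The part of such cells in the results that follow was not tested.

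**Figure D3:**
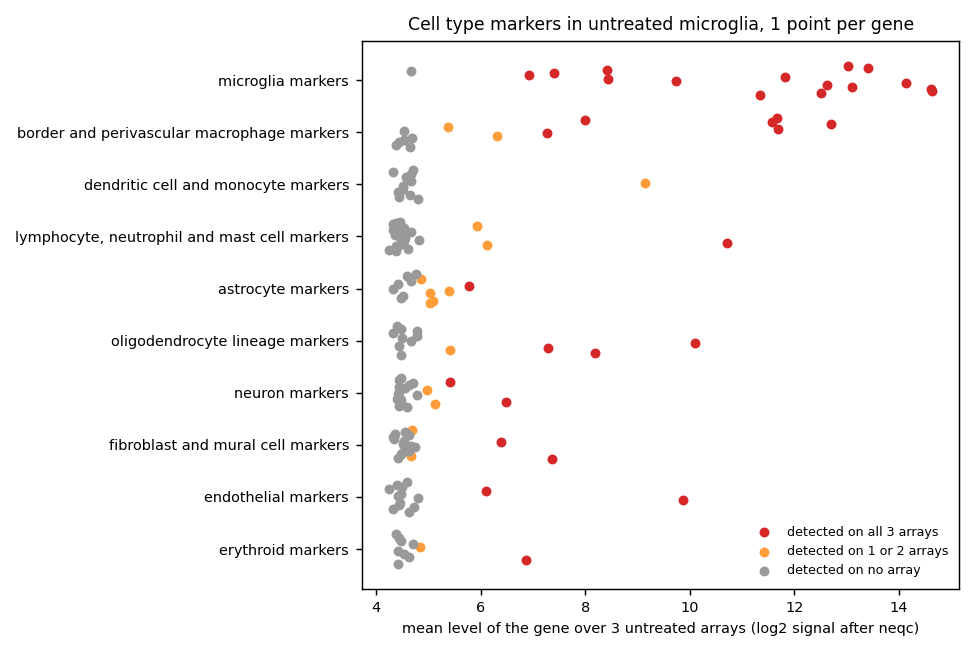
Mean level over the 3 untreated arrays (log2 signal after neqc) of each marker gene, by cell type, coloured by whether it was detected on all 3 arrays, on some or on none; vertical offsets within a row carry no value. Microglia markers reach 14.64, whereas most markers of other lineages lie in the band of undetected genes. Above it lie the 6 of 14 border and perivascular macrophage markers that were detected and single genes such as Cd8b1, Mbp and Flt1.

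Markers of border and perivascular macrophages, which line brain vessels and meninges, were detected in 6 of 14 cases (42.9%) and absent in 6. The share detected was near the 39.3% of all genes, of which 54.0% were absent. Mrc1, the mannose receptor, read 12.76, 10.77 and 11.54, Ms4a7 13.16, 12.46 and 12.46 and the chemokine Pf4 12.62, 10.05 and 12.06. Siglec1, a sialic acid-binding receptor, read 8.15, 7.18 and 8.68. Mrc1, Pf4 and Siglec1 were the variable members and each was lowest on replicate 2, while 1 of the 6 was 1 log2 unit apart between replicates 1 and 3. Stab1, a scavenger receptor, read 11.79, 11.79 and 11.45 with little spread. Cd163, a haemoglobin scavenger receptor, was absent at 4.41, 4.33 and 4.41, as were Lyve1, Cbr2 and Cd36.

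The transcription factors of microglia and macrophages were nearly all expressed, 12 of 13. Cebpb, a factor of myeloid maturation and inflammatory genes, was the brightest at 13.06, 12.16 and 12.78. Mef2c read 12.12, 11.42 and 11.34, Zeb2 11.62, 10.76 and 10.89 and Irf5, an interferon regulatory factor, 10.77, 11.60 and 10.95. The lineage factor Spi1 read 9.10, 8.60 and 8.92 and its partner Irf8 9.93, 9.95 and 10.39. Sall1, which in the brain is confined to microglia among macrophages, was dim but detected, at 7.45, 7.03 and 7.72. Maf was the only variable factor, at 6.75, 5.56 and 5.49, high on replicate 1 and also the 1 factor apart by 1 log2 unit between replicates 1 and 3. The median factor lay 0.36 log2 units lower on replicate 2 than the mean of the other arrays, against a median difference of 0.0046 over all detected genes.

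Of 38 homeostatic markers, the genes microglia express in the healthy brain, 34 were detected at a median level of 11.11. Siglech, Crybb1, Entpd1 and Slc2a5 were absent. Tgfbr1 at 12.08, 12.07 and 12.27 and Tgfbr2 at 12.88, 12.99 and 13.24, the receptors for TGF-beta, hardly differed between the arrays. Variable were 11 of the 34, and each of these was lowest on replicate 2, where 4.94% of all detected genes were both variable and lowest. Between replicates 1 and 3 alone, 1 of the 34 differed by at least 1 log2 unit, against 162 of 7493 genes. Sparc, a secreted matrix protein, read 6.58, 5.21 and 8.85. Tmem119 ranged over 2.55 log2 units and P2ry12 over 1.85. The adenosine diphosphate receptor P2ry13 read 10.57, 8.65 and 10.30, the sialic acid receptor Cd33 9.31, 7.17 and 9.02 and the integrin Itgam 9.35, 7.28 and 8.64. In each of these, replicate 2 was at least 1 log2 unit below both others. The median difference of replicate 2 was -0.51 log2 units.

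In the complement list C1q was bright while the proteases it activates were absent. Of 18 genes, 9 were detected and 8 absent. The C1q chains read 14.84, 14.31 and 14.78 for C1qb, 14.85, 14.13 and 14.88 for C1qc and 12.98, 11.71 and 12.86 for C1qa. Replicate 2 was lowest in each. Cfp, properdin, which stabilises the alternative pathway convertase, read 14.13, 12.13 and 13.60. The proteases that C1q activates were represented by C1ra at 4.45, 4.46 and 4.30 and C1s1 at 4.37, 4.40 and 4.37, both absent. C3ar1, the C3a receptor, and Itgax, a complement receptor chain, were absent as well, and C3 was not analysed here. Variable were 4 of the 9, all lowest on replicate 2. Between replicates 1 and 3 none of the 9 differed by at least 1 log2 unit, against 162 of 7493 genes.

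Lysosomal genes had the highest share detected of the gene lists, 30 of 31, with a median level of 12.91 against 8.17 over all detected genes and with 15 members among the 100 brightest genes. Lipa, the acid lipase for cholesteryl esters, read 13.13, 13.89 and 13.11, and Atp6ap1, an accessory subunit of the proton pump, 13.14, 13.06 and 13.02. Their median difference on replicate 2 was -0.055 log2 units. The proton pump itself, the vacuolar ATPase, had 15 of 22 subunits detected, none variable, with a median of 0.21 log2 units higher on replicate 2. Of all cathepsin genes on the array 10 of 23 were detected, a share near the 39.3% of all genes. Ctsc read 13.78, 13.09 and 13.73 and Ctsh 12.57, 12.12 and 13.24. Ctsf at 7.72, 7.13 and 8.28 and Ctsl at 6.92, 6.95 and 8.03 were dimmer and highest on replicate 3. All 4 variable cathepsins were highest on that array.

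Genes that rise in damage-associated microglia, a state described around plaques and in degeneration, were also expressed without stimulation. Of 25, 23 were detected at a median level of 12.75, and 9 were among the 100 brightest. Apoe, the lipid carrier, read 14.81, 14.67 and 14.85. Lgals3, galectin 3, read 13.72, 14.19 and 13.40, and the growth factor Igf1 12.37, 13.34 and 12.54. Itgax was the only absent member, and Spp1 was not analysed here. Of the 23, 6 were variable, and 4 lay at least 1 log2 unit apart between replicates 1 and 3 alone, against 162 of 7493 genes. Lowest on replicate 1 were 5 of the 6, where 2.03% of all detected genes were both variable and lowest. The 6 were highest on replicate 2 in 3 cases and on replicate 3 in 3. The chemokines Ccl3 at 10.07, 11.91 and 10.87 and Ccl4 at 11.29, 13.24 and 12.61 were highest on replicate 2, with Lpl. Cst7, cystatin F, an inhibitor of cathepsins, went the other way at 7.87, 6.65 and 9.53. Many of these genes are also known from other macrophages in culture, and the list has members in common with the lysosomal, iron and lipid lists.

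Of 16 iron genes 13 were detected, 4 of them among the 100 brightest. On replicate 2, 8 of the 13 were highest and 3 lowest, against 37.7% and 36.4% of all detected genes. The light ferritin chain Ftl1 read 13.40, 13.74 and 13.33 and Trf, transferrin, 13.75, 13.37 and 13.85. The iron exporter Slc40a1, ferroportin, read 11.49, 13.70 and 11.29, a range of 2.42. Hmox1, which releases iron from haem, read 10.88, 12.09 and 10.23, and Blvrb, a biliverdin reductase, 12.45, 13.15 and 11.996. These 3 were the variable members, each highest on replicate 2 and lowest on replicate 3. Bach1, a haem-sensing repressor known to act on Hmox1, read 9.95, 7.30 and 8.42, lowest on replicate 2. Between replicates 1 and 3, both Bach1 and Hmox1 were higher on replicate 1. A link between the levels of these genes was not tested. The median iron gene was 0.355 log2 units higher on replicate 2 than the mean of the other arrays. No iron gene differed by 1 log2 unit between replicates 1 and 3, against 162 of 7493 genes.

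Among lipid genes 15 of 22 were detected. Apoc1 read 11.18, 10.51 and 12.05 and Apoc2, the cofactor of Lpl, 7.99, 6.88 and 9.04, both lowest on replicate 2 while Lpl was highest there. Ch25h, which makes 25-hydroxycholesterol, read 9.85, 7.99 and 10.12. The cholesterol exporter Abca1, the desaturase Scd1 and the fatty acid binding protein Fabp4 were absent. Of the 15, 7 were variable, and 3 differed by at least 1 log2 unit between replicates 1 and 3, against 162 of 7493 genes.

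Receptors for microbes, antibodies and debris were broadly expressed, 31 of 38. Cd14, the coreceptor for lipopolysaccharide, read 13.57, 13.60 and 13.96, and Tlr2, which senses bacterial lipopeptides, 12.91, 11.41 and 12.84. Fcgr3, a low-affinity IgG receptor, read 12.99, 12.21 and 12.92, and the C-type lectin Clec4d 12.97, 12.71 and 12.51. Clec4n, or dectin-2, read 11.94, 9.77 and 11.14 and Clec4a1 11.83, 9.98 and 10.51. Nod2, a sensor of bacterial wall fragments, was absent, as were Cd36 and Clec4a2. Of the 31, 10 were variable, 8 of them lowest on replicate 2. Between replicates 1 and 3 alone, 3 differed by at least 1 log2 unit.

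Growth factor genes and their receptors were detected in 22 of 32 cases. Tgfb1, encoding the cytokine that sustains microglial identity, read 9.86, 9.42 and 9.59. Csf2rb, the shared receptor chain for GM-CSF, IL-3 and IL-5, read 8.76, 6.09 and 7.67, Il6ra 9.20, 6.94 and 7.99 and Il13ra1 9.53, 8.05 and 9.83. Each was lowest on replicate 2. The ligands Il34 and Csf2 were absent, as were the receptors Kit and Flt3. Of the 22, 8 were variable, and 4 lay at least 1 log2 unit apart between replicates 1 and 3 alone, against 162 of 7493 genes.

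Purinergic receptors sense nucleotides released by damaged cells, and 12 of 20 genes of this group were detected. P2ry6, which triggers phagocytosis in response to UDP, read 12.83, 11.99 and 12.79, and the ATP-gated channel P2rx4 11.47, 11.08 and 11.23. Kcnk13, a potassium channel that sets the resting potential of microglia, read 10.61, 10.60 and 10.75, and the proton channel Hvcn1 11.13, 10.79 and 11.16. Both channels were uniform. P2ry14 read 8.15, 6.08 and 7.76, low on replicate 2 as were P2ry12 and P2ry13. Of the 12, 4 were variable, all lowest there. None was 1 log2 unit apart between replicates 1 and 3, against 162 of 7493 genes. P2ry2, P2rx1, P2ry10 and Entpd1, which degrades extracellular ATP, were absent.

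Of 26 chemokine genes 11 were detected and 9 absent. Ccl9 was the brightest at 13.25, 12.58 and 13.14, and the membrane-anchored Cxcl16 read 12.30, 11.50 and 12.22. Ccl12, a ligand of Ccr2, read 11.05, 6.71 and 10.72, one of the largest ranges on the array. Cxcl2, a neutrophil attractant, read 8.06, 5.22 and 6.75. Ccl17, Ccl22, Ccl20 and Ccl8 were absent. Of the 11, 7 were variable, with 4 lowest and 3 highest on replicate 2, and 2 differed by at least 1 log2 unit between replicates 1 and 3. Chemokine receptors were few, 3 of 18, namely Cx3cr1, Cxcr4 at 9.49, 8.91 and 9.40 and Ccrl2 at 6.90, 6.96 and 7.58. Ccr1, Ccr2, Ccr3 and Ccr4 were absent.

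Of the cytokine and effector list 10 of 32 were detected, a share not far from the 39.3% of all genes. Il1b, which needs cleavage before it is released, was bright at 12.76, 11.20 and 12.27. Saa3, an acute phase protein of macrophages, read 11.54, 9.79 and 11.17, and the protease Mmp14 11.09, 8.61 and 10.22. All 3 were lowest on replicate 2. Of the 10, 5 were variable, and 2 were 1 log2 unit apart between replicates 1 and 3. Tnf read 8.20, 8.28 and 7.62, Osm 9.84, 10.07 and 10.28 and Il15 10.23, 10.09 and 9.77. Il6 was detected on replicate 1 alone, at 5.34, 4.53 and 4.51. Absent were Nos2, the inducible nitric oxide synthase, at 4.62, 4.76 and 4.46, and Il10, Il12a, Il23a and Il27.

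Interferon-stimulated genes, which cells raise in response to type I or type II interferon, were detected in 34 of 45 cases at a median level of 9.18. Membrane proteins that block virus entry were bright, with Ifitm3 at 13.76, 11.69 and 13.29, Ifitm1 at 12.78, 10.84 and 12.54 and Ifitm2 at 12.42, 11.05 and 12.40. Ly6e, of the Ly6 family, read 13.18, 10.53 and 13.13, and a second Ly6e probe read 11.72, 8.995 and 11.71. The second probe of Ifitm1 went the other way, at 8.88, 9.002 and 8.20. Gbp3, a guanylate-binding protein, read 7.88, 5.80 and 7.94. Ifit1, Gbp5, Iigp1 and Tgtp1 were absent. On replicate 2, 29 of the 34 were lowest, against 36.4% of all detected genes. Of the 10 that were variable 9 were lowest there. Between replicates 1 and 3 none of the 34 differed by at least 1 log2 unit, against 162 of 7493 genes.

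Antigen presentation showed the same array. Of 22 MHC genes 17 were detected, and 15 of these were lowest on replicate 2, against 36.4% of all detected genes. The brightest were of class I, B2m at 14.51, 14.35 and 14.64, H2-D1 at 13.73, 13.52 and 13.52 and H2-T23 at 12.03, 11.72 and 11.83, with ranges of 0.29, 0.22 and 0.31. H2-K1, named after its values were seen, read 10.62, 9.85 and 10.80, a range of 0.95. H2 class I genes are near-identical copies, so their probes may share transcripts. The class II chaperone Cd74 read 11.11, 8.85 and 10.87, H2-DMa 9.16, 7.86 and 9.39, the peptide-loading factor Tapbp 8.98, 6.85 and 8.35 and the costimulator Cd86 10.97, 9.63 and 10.98. Each of these lay at least 1 log2 unit lower on replicate 2 than on both others. H2-Aa, a class II chain, was absent, as was Ciita, the regulator of class II genes. The class II chain H2-Ab1, named after its values were seen, was detected, with a range of 1.01 and lowest on replicate 2. A second H2-Ab1 probe was dim and read 5.51, 5.52 and 5.82. No member differed by 1 log2 unit between replicates 1 and 3, against 162 of 7493 genes.

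The protein synthesis, proteasome and complex I families differed little between the arrays. Of 53 detected cytosolic ribosomal protein genes 1 was variable, Rpl7a, also named after its values were seen, and 24 were among the 100 brightest. No mitochondrial ribosomal protein, proteasome or complex I gene that was detected was variable. Glycolysis had 13 of 14 genes detected, with Pkm, pyruvate kinase, at 13.72, 13.72 and 13.59, Gapdh at 12.47, 12.39 and 12.91 and Ldha at 12.40, 11.79 and 12.48. The variable members were Hk3, a hexokinase of myeloid cells, at 10.97, 12.26 and 11.05 and Pfkl at 9.94, 8.58 and 10.39, in opposite directions on replicate 2. A second Pfkl probe was dim and read 5.48, 5.20 and 5.46. No glycolysis gene differed by 1 log2 unit between replicates 1 and 3, against 162 of 7493 genes. NADPH oxidase and antioxidant genes were mixed, with 17 of 20 detected and 7 of the 17 variable, and 1 of the 17 lay at least 1 log2 unit apart between replicates 1 and 3. Prdx1 at 13.48, 13.64 and 13.63 and Gpx1 at 12.91, 13.16 and 13.27 were bright, with ranges of 0.16 and 0.36. Cat, catalase, read 9.75, 11.41 and 9.54, and Ncf1, a cytosolic subunit of the phagocyte oxidase, 8.83, 7.43 and 8.96. The membrane subunit Cyba read 13.07, 12.98 and 13.05, while its partner Cybb, with 2 probes, was absent at 5.04, 5.12 and 4.86. Nqo1 and Gclc, targets of the stress factor Nrf2, were absent.

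The cell cycle list had 22 of 32 genes detected but at a median level of 7.03, below the 8.17 of all detected genes. Ccnd1, cyclin D1, which links growth signals to cycle entry, was the brightest at 11.76, 11.73 and 11.41. The replication helicase subunits Mcm4 and Mcm6 read 9.61, 9.38 and 9.78 and 8.26, 8.74 and 8.96. Mitotic genes were dimmer and highest on replicate 3, with Plk1 at 6.39, 6.36 and 7.73 and Cdc20 at 6.42, 5.87 and 7.71. Of the 22, 17 were highest on replicate 3, against 31.1% of all detected genes. Between replicates 1 and 3, 4 lay at least 1 log2 unit apart, against 162 of 7493 genes. Pcna, the polymerase clamp, was highest on replicate 2 at 5.81, 7.09 and 6.03. Ccna2, Ccnb2, Bub1 and Ccne1 were absent, and Mki67 was not analysed here.

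Immediate early genes are raised within minutes of a stimulus or of handling, and 20 of 31 in that list were detected. Fos read 11.42, 11.81 and 11.44, Zfp36, which destabilises cytokine transcripts, 11.86, 12.76 and 12.41, and Klf6 12.18, 11.61 and 11.31. Atf3, a stress factor, was highest on replicate 2 at 9.32, 11.73 and 9.78, whereas Ier3 was lowest there at 11.40, 8.36 and 11.07. Fosb, Egr3, Ier2 and Klf4 were absent. Actin and motility genes were detected in 25 of 27 cases, and their 4 variable members were all lowest on replicate 2, among them Actb, S100a11 at 8.50, 6.37 and 7.93 and S100a6 at 7.01, 5.17 and 5.91. Between replicates 1 and 3, 1 of the 25 was 1 log2 unit apart.

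Matrix and adhesion genes were detected in 17 of 27 cases and 10 of the 17 were variable, 7 lowest on replicate 2. Timp2, an inhibitor of matrix proteases, read 12.36, 12.23 and 12.74, and the integrin Itgb5 11.93, 11.57 and 12.32, with ranges of 0.51 and 0.75. Itgav, the integrin alpha V chain, was higher on replicate 2 at 7.06, 9.15 and 7.002, and its second probe read 7.36, 8.01 and 7.47. Of the 17, 3 differed by at least 1 log2 unit between replicates 1 and 3. Of 4 sex-linked markers, Xist, expressed from the inactive X chromosome, read 10.76, 11.19 and 10.06 and the Y-linked Eif2s3y 7.34, 8.10 and 7.64. Both were detected on every array, while Uty was absent and Ddx3y was not analysed here.

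Taking all detected genes, the median SD over the 3 arrays was 0.21 and the median range 0.40 log2 units. The spread was larger for dim genes. With the genes cut by level into bins of equal size, the median SD was 0.24 in the dimmest bin and 0.17 in the brightest, where 188 of 1874 and 119 of 1873 genes were variable. A range of at least 2 was reached by 85 genes and of at least 3 by 10. Of the 653 variable genes, 370 (4.94% of detected genes) were lowest on replicate 2 and 198 (2.64%) highest there. Replicate 1 was lowest for 152 (2.03%) and highest for 264 (3.52%), and replicate 3 lowest for 131 (1.75%) and highest for 191 (2.55%). With median scaling in place of quantile normalization, 319 variable genes were lowest and 380 highest on replicate 2, 542 lowest and 105 highest on replicate 1, and 54 lowest and 430 highest on replicate 3. Which array held the most lowest genes, and the balance of the directions on each, therefore depend on the scaling. In the reported normalization, 145 genes lay at least 1 log2 unit below both other arrays on replicate 2, 21 on replicate 1 and 6 on replicate 3. At least 1 log2 unit above both others lay 69 on replicate 2, 54 on replicate 1 and 32 on replicate 3. These counts were not repeated under median scaling. Without replicate 2, normalized again, 184 genes differed by at least 1 log2 unit, here a range over 2 arrays and not 3.

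Other probes bear on these counts. Of the variable genes, 189 had a second probe detected on all 3 arrays, and for 110 of them that probe also had a range of at least 1. Where the brightest probe was lowest on replicate 2, the second probe was lowest there for 87 of 101 genes. Where it was highest on replicate 2, the second was highest there for 52 of 65. Probes of 1 gene read the same RNA, so they are no further replicates.

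Gene lists differed in how they lay on replicate 2. Medians were -0.795 for border macrophage markers, -0.76 for chemokines, -0.74 for complement, -0.65 for MHC genes, -0.55 for matrix and adhesion, -0.51 for interferon-stimulated genes and -0.29 for Fc and pattern receptors. They were -0.09 for cytosolic ribosomal protein genes and 0.10 for damage-associated genes. Each of these medians kept its sign under median scaling, under neqc on all 11 arrays, without background correction, with a larger offset and in the values of the authors' deposited table. Across these settings the median of all detected genes ran up to 0.0975, under median scaling. There the damage-associated median, 0.0814, lay below that of all detected genes, so its sign does not place the list higher. Members had been chosen with earlier results of these data known, and lists share genes.

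**Figure D4:**
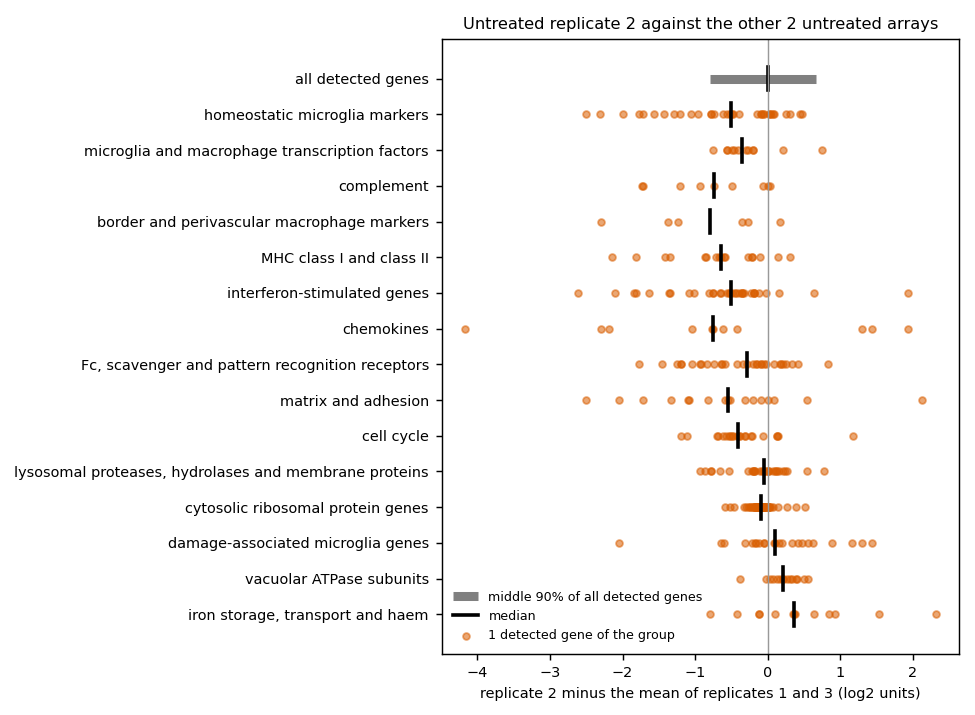
Level on untreated replicate 2 minus the mean of replicates 1 and 3 (log2 units) for each detected gene of 15 lists and families (points) with the median (black bar); the grey bar gives the middle 90% of all detected genes, from -0.79 to 0.66. The medians of microglia, complement, interferon-stimulated and MHC genes lie to the left and that of iron genes to the right.

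In the reported normalization the gene with the largest range was Socs3, an inhibitor that cytokines induce to shut off JAK and STAT signalling. It read 9.16, 5.59 and 9.96, with replicate 2 near the detection limit and the others far above it. Ccl12 followed at a range of 4.33 against 4.37, but it led without background correction (3.42 against 2.87) and in the authors' deposited table (3.46 against 2.84). Its second probe read 9.74, 5.35 and 9.26. Pilra, an inhibitory receptor of myeloid cells, read 9.23, 5.39 and 8.97, and its second probe 7.51, 5.14 and 7.69. For both chemokine and receptor the 2 probes put replicate 2 lowest. Their promoters and that of Socs3 are shown because these 3 genes had the largest ranges in that normalization. Without background correction Spint1 (3.03) and Aoah (2.84) ranged wider than Pilra (2.28). They are RefSeq windows of GRCm38.p6, for Socs3 chr11:117969317-117969616, minus strand, for Ccl12 chr11:82101595-82101894, plus strand and for Pilra chr5:137836229-137836528, minus strand. Capitals mark TTCNNNGAA, the letters read by STAT factors, in Socs3, TATAAA in Ccl12 and GAGGAAG, the PU.1 letters, in Pilra. 
Socs3: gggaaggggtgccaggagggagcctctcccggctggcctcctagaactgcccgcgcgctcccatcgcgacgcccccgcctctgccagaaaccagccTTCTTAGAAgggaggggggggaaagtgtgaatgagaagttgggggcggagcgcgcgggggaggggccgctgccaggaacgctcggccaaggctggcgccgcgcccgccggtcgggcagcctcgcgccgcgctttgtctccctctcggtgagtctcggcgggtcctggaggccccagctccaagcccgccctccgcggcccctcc
Ccl12: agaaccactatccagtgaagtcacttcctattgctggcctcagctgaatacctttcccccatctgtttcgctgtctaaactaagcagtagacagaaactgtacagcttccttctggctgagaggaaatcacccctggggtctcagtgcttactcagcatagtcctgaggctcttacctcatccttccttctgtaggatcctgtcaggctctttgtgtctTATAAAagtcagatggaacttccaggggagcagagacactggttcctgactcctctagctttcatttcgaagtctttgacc
Pilra: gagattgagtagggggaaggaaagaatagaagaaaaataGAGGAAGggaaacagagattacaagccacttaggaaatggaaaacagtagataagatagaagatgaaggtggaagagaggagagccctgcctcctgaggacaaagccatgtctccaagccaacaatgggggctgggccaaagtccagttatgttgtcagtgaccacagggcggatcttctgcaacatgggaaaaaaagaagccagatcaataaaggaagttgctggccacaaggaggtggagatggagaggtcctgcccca
The first held 31 CG dinucleotides, the second 2 and the third 1. TTCNNNGAA, searched on both strands, was present in 8.3% of all windows and in 6.91% of those of detected genes. A match is a run of letters and not a bound site. Windows were found for 78.1% of the 370 genes lowest on replicate 2, under 80%, so a comparison of their promoters is void.

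Of the 25 genes with the largest ranges, 22 had replicate 2 lowest. Spint1, a membrane inhibitor of serine proteases, read 11.17, 7.58 and 11.17, nearly equal on replicates 1 and 3. Aoah, which inactivates lipopolysaccharide by removing its acyl chains, read 10.70, 7.16 and 9.67. Hcar2, a receptor for hydroxybutyrate and nicotinic acid, read 6.86, 5.22 and 8.53. Tgfbi, a matrix protein induced by TGF-beta, was bright at 11.69, 9.31 and 12.09, and its second probe read 9.43, 6.57 and 9.90. Gpr84, a receptor for medium-chain fatty acids, read 11.22, 8.59 and 10.81, and Nupr1, a stress-induced nuclear protein, 9.36, 6.70 and 8.78. In these genes replicates 1 and 3 lay nearer to each other than to replicate 2, except in Hcar2, where the 3 arrays were spread evenly. Fscn1, an actin-bundling protein, read 8.09, 5.37 and 7.23, Chst1, a sulfotransferase, 9.17, 7.41 and 10.18 and Tmem204 7.97, 5.27 and 7.60. Emb read 8.91, 6.30 and 7.05 and Chd1, a chromatin remodeller, 8.31, 5.72 and 6.60, with replicate 1 highest and replicates 2 and 3 nearer each other.

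A few of the 25 behaved otherwise. Nanos1, an RNA-binding repressor of translation known from germ cells, was highest on replicate 2 at 5.89, 9.14 and 6.95. Treml1, a relative of Trem2 known from platelets, was highest there too at 6.17, 8.18 and 5.20. Acta2 was high on replicate 1 alone, and only 1 of its 6 probes was detected on all 3 arrays. Col18a1, a basement membrane collagen, read 8.80, 6.94 and 6.16 and was lowest on replicate 3.

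**Figure D5:**
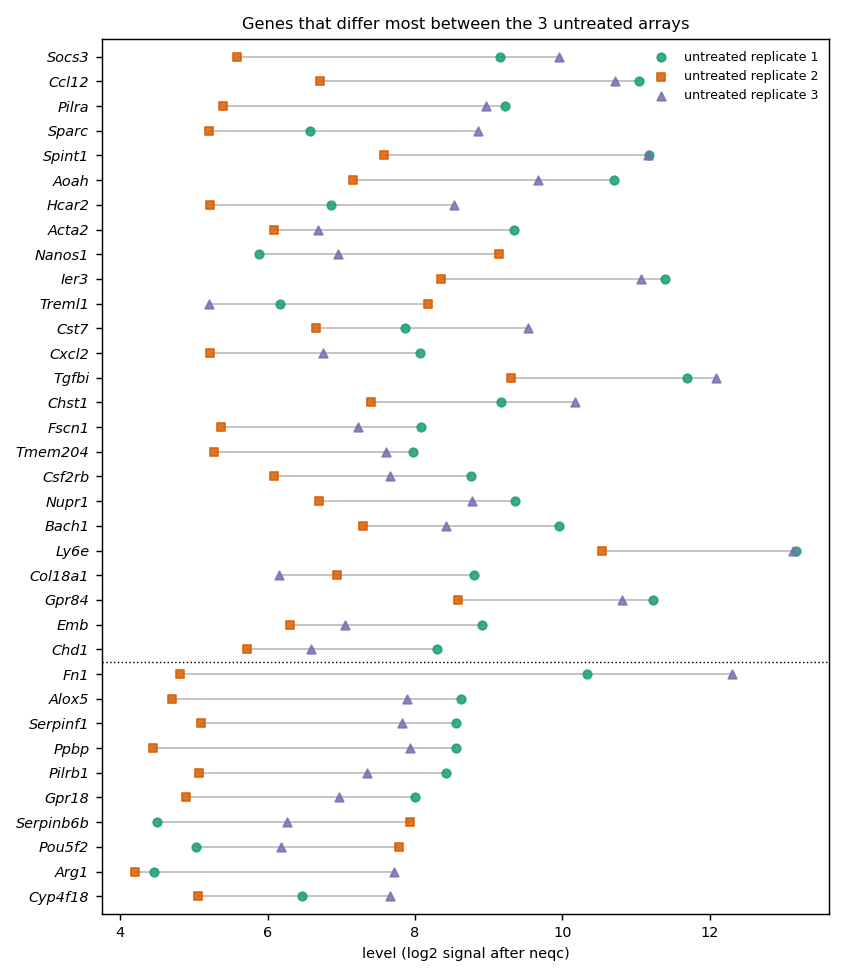
Level (log2 signal after neqc) on each untreated array of the 25 detected genes with the largest range (above the dotted line) and of the 10 brightest genes detected on only some arrays (below it), 1 point per array. Replicate 2 is at the low end for all but a few, of which Nanos1 and Treml1 are highest there.

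Genes that crossed the detection limit were counted apart. Of the 1268, the representative probe was detected on 2 arrays for 518 and on 1 array for 745. Those on 2 arrays were missed on replicate 1 in 198 cases, on replicate 2 in 209 and on replicate 3 in 111. Fn1, fibronectin, a matrix protein of macrophages and mesenchymal cells, read 10.34, 4.81 and 12.30. It was among the brighter genes on replicate 3 and not detected on replicate 2. Alox5, the enzyme that starts leukotriene synthesis, read 8.62, 4.71 and 7.89, Ppbp, a platelet and myeloid chemokine, 8.56, 4.44 and 7.94 and Serpinf1 8.56, 5.09 and 7.82. Pilrb1, the activating counterpart of Pilra, read 8.42, 5.07 and 7.35, Gpr18 8.003, 4.89 and 6.97 and Cyp4f18 6.47, 5.05 and 7.66. In all of these replicate 2 was the array below the limit. Serpinb6b at 4.50, 7.93 and 6.26 and Pou5f2 at 5.03, 7.78 and 6.18 were instead below it on replicate 1 and highest on replicate 2. Arg1, the arginase that marks alternative activation in mice, read 4.46, 4.20 and 7.72, detected on replicate 3 alone.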

How the data were processed

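Total RNA of 3 untreated microglia samples was read on Illumina arrays. Per the file headers, the deposited scanner table gives the intensity of each probe, a mean bead signal that is not normalized, and a detection p-value, also deposited, for each probe and array. The authors' deposited value table holds log2 values and served only as an alternative. Partek is named in the submitters' processing notes. No source used here gives the other steps or the genome build.

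R 4.3.3 with limma 3.58.1 was used, and its neqc function was run on the 3 untreated arrays (normexp background correction with an offset of 16, then quantile normalization and log2). Of 45281 probes, 10378 had no gene symbol, 34885 had 1 and 18 had more. RefSeq's table for GRCm38.p6 gave current symbols for 34807 through their Entrez IDs. A gene was read from its probe with the highest mean. A gene was variable at a range of at least 1 log2 unit among the 7493 genes whose representative probe was detected on all 3 arrays. For 3 detected genes only another probe passed. The range step was run on simulated data in which only probes well above the detection limit were raised, by more than 1 log2 unit. Finding them was largely built in, and no dim probe was raised, so nothing is concluded from it. No test was run, because the rule holds 1 group. The number of arrays limits the precision. Tables were handled in Python 3.11.15 with pandas 2.3.3.

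The genes named were the 30 brightest, the 25 with the largest range, the 10 brightest on any array among those detected on 1 or 2 arrays, per list up to 4 detected members with the highest mean, 3 with the largest range and 4 absent ones, per family the 2 brightest, 3 genes on either side of the detection limit, and a fixed panel. Genes named otherwise are marked. The members, the 31 lists and the 18 families were chosen with earlier results of these data known. Promoter windows are those of RefSeq (GRCm38.p6), 300 bases each. Alternatives covered the detection limit, background correction, scaling, the probe rule and leaving out each array, and the count of list members apart between replicates 1 and 3 alone was added after seeing the data.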

Additional observations from a re-analysis of the deposited data

How the results depend on the processing

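The counts of detected genes (6897 to 8018) and absent genes (8639 to 11189) and the number of the 30 brightest genes also among the 30 brightest there (21 to 30) stayed within 1.5 times the reported values under every alternative run. The mean correlation between arrays, 0.970, ran from 0.9631 to 0.9811 when an array was left out, highest without replicate 2. The number of variable genes, 653, was 266 in the authors' table, 256 without background correction, 413 with a normexp offset of 50, 1249 counted over every probe, and 184 to 436 with an array left out, lowest without replicate 2. Those highest on replicate 2, 198, became 79 in the authors' table, 75 without background correction, 117 with the offset of 50 and 380 with median scaling. Those lowest there, 370, became 171 in the authors' table and 165 without background correction. A larger offset shrinks differences of dim signals by construction. Leaving out an array also tends to lower ranges by construction, since a range is then taken over 2 arrays and not 3. The cause of the other shifts was not tested. Of the 25 genes with the largest range, 12 were also among the 25 in the authors' table, 14 without background correction, 16 with median scaling and 8 without replicate 2. Of the 25 ranges, 17 moved by more than the replicate spread without replicate 2, 5 without replicate 1 and 3 without replicate 3. These genes were picked for their range and replicate 2 was lowest in most, so a fall without it was built in. Dim genes limit these results, since their spread was the largest. No paired analysis was possible because the results come from no test and concern 1 group.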
